A study of Mus musculus with 12 samples.

Results

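The 10 genes described here belong to the Wnt/beta-catenin pathway: Ctnnb1, Apc, Axin2, Lef1, Tcf7, Tcf7l2, Nkd1, Znrf3, Rnf43 and Wisp1. They were picked by symbol, with earlier results of these data known. They were found in every count table, among 24421 gene symbols. After the filter on low counts (1 CPM, the counts-per-million value, in 3 or more libraries), 7 of the 10 remained, each with at least 1 CPM in all 12 libraries, as did 11638 of all symbols. Lef1, Nkd1 and Rnf43 were below the filter and are described by their counts.

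RNA was sequenced from B16F10, a pigmented mouse melanoma cell line, in 4 groups of 3 independent culture repeats (replicates 1, 2 and 3). Control cells received the solvent dimethyl sulfoxide (DMSO). DAC cells received 25 nM 5-aza-2′-deoxycytidine, an inhibitor of DNA methyltransferases, for 72 h. SFN cells received sulforaphane, an isothiocyanate from cruciferous vegetables, for 48 h after 24 h without drug, and DAC+SFN cells received 25 nM DAC for 72 h with SFN added for the last 48 h. For the SFN dose, the labels give 5 nM in SFN cells and 5 µM in DAC+SFN cells, whereas the study's methods describe the same dose in both groups, so by the labels the dose differs in the comparison of DAC+SFN with SFN and in the interaction. All groups were unmodified cells of the same line, seeded alike and harvested together at 72 h. DAC was dissolved in DMSO and SFN in water according to the study's methods, and DNA methylation and protein levels are not analysed here.

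In the canonical pathway, beta-catenin (the product of Ctnnb1) is bound by a destruction complex that APC and the Axins scaffold, is phosphorylated there and is degraded. When a Wnt ligand engages a Frizzled receptor with LRP5 or LRP6, that degradation stops, and beta-catenin enters the nucleus and binds transcription factors of the TCF/LEF family. Several target genes feed back on the pathway: AXIN2 rebuilds the destruction complex, NKD1 binds Dishevelled, and the ubiquitin ligases ZNRF3 and RNF43 remove Frizzled from the cell surface. In the pigment cell lineage the pathway is known for the specification of melanocytes from the neural crest and for the control of Mitf. Because beta-catenin is controlled mainly as a protein, the RNA level of Ctnnb1 does not measure the activity of the pathway.

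Since DAC interferes with DNA methylation, the sequences just before the start sites of a detected and an undetected feedback target are shown side by side, with every CpG in capitals. They are 250 bases long, on the forward strand of GRCm38.p6, and were taken from the RefSeq promoter table. Axin2 (chr11:108920099-108920348) carried 24 CpG sites in this stretch, and Nkd1 (chr8:88527383-88527632, a start site inside the longer gene model of GENCODE) carried 6. The start of that longer model was not examined. Whether CpG content or methylation is related to the level of either gene was not tested.
Axin2: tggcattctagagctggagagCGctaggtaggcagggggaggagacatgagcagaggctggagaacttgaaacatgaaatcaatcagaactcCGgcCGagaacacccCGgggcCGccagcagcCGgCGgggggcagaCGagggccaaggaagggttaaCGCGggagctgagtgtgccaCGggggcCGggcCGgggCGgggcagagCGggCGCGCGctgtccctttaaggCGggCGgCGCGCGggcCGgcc
Nkd1: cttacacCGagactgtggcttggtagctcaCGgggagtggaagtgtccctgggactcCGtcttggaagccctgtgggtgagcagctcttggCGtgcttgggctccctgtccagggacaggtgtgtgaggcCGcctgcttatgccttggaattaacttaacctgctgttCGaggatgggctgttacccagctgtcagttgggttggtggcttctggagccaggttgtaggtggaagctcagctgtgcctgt
Over the whole 300 bases of each table entry, the median promoter of the 32851 entries held 7 CpG sites. Of the 10 genes, 7 had an entry, with 14 start sites in all. Ctnnb1 had the most CpG sites (46 and 51 at its start sites), followed by Tcf7 (45 and 17), Tcf7l2 (34 and 7) and Axin2 (31), while Rnf43 had 10 and 3, Nkd1 had 6, and the 4 start sites of Lef1 had between 5 and 21. Of the motifs that TCF/LEF factors bind, CTTTGAT was found on either strand of 3.73% of all promoters, the variant CTTTGAA in 5.14%, the variant CTTTGTT in 5.85%, and any of them in 13.9%. Among the 14 entries, 1 match was found, to the last of these motifs, at the second start site of Tcf7l2.

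The libraries held between 15880957 and 27291436 counts, so that 1 CPM stood for 16 to 27 counts and 3 counts stood for 0.112 to 0.191 CPM. All 8 melanocyte markers were above the filter, with a summed level of 22434 to 31212 CPM over the 12 libraries. Keratinocyte markers (6 genes, Krt1 and Krt10 at 0 in all libraries) summed to at most 0.091 CPM, endothelial markers (4 genes, Cdh5 at 0) to 0.0753 to 0.766 CPM, and immune cell markers (6 genes, Adgre1 at 0) to 1.16 to 5.12 CPM. Fibroblast markers (6 genes) summed to between 19.9 and 367 CPM, and the ranges of the control (20.2 to 321), DAC (25.4 to 367), SFN (19.9 to 251) and DAC+SFN (29.1 to 252) groups overlapped. This sum was mostly Col1a1, which varied widely within each group. It had 15.6 to 312 CPM in control, 18.1 to 356 with DAC, 16.7 to 245 with SFN and 24.1 to 246 with DAC+SFN. Of the 8 melanocyte markers none was called with DAC or SFN, where 0.18% and 13.9% of all genes tested were. With DAC+SFN 3 were called (37.5%), a share close to the 31.6% of all genes tested. Pmel (log2 fold change -0.36, adjusted p = 0.0129) and Tyrp1 (-0.17, 0.0478) were lower and Slc45a2 was higher (0.18, 0.0236). Tyr was higher with DAC+SFN than with DAC (0.16, 0.0442). Among markers of other cell types, Pdgfra was lower with SFN (log2 fold change -0.84, adjusted p = 0.024) and with DAC+SFN (-0.73, 0.0249), and Lyz2 was higher with DAC+SFN (1.02, 0.0289), while Col1a2 was lower with DAC+SFN than with DAC (-0.71, 0.0493). Their part in the results was not tested. In a bulk library, fewer cells of a type and less RNA per cell cannot be told apart.

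**Figure D1:**
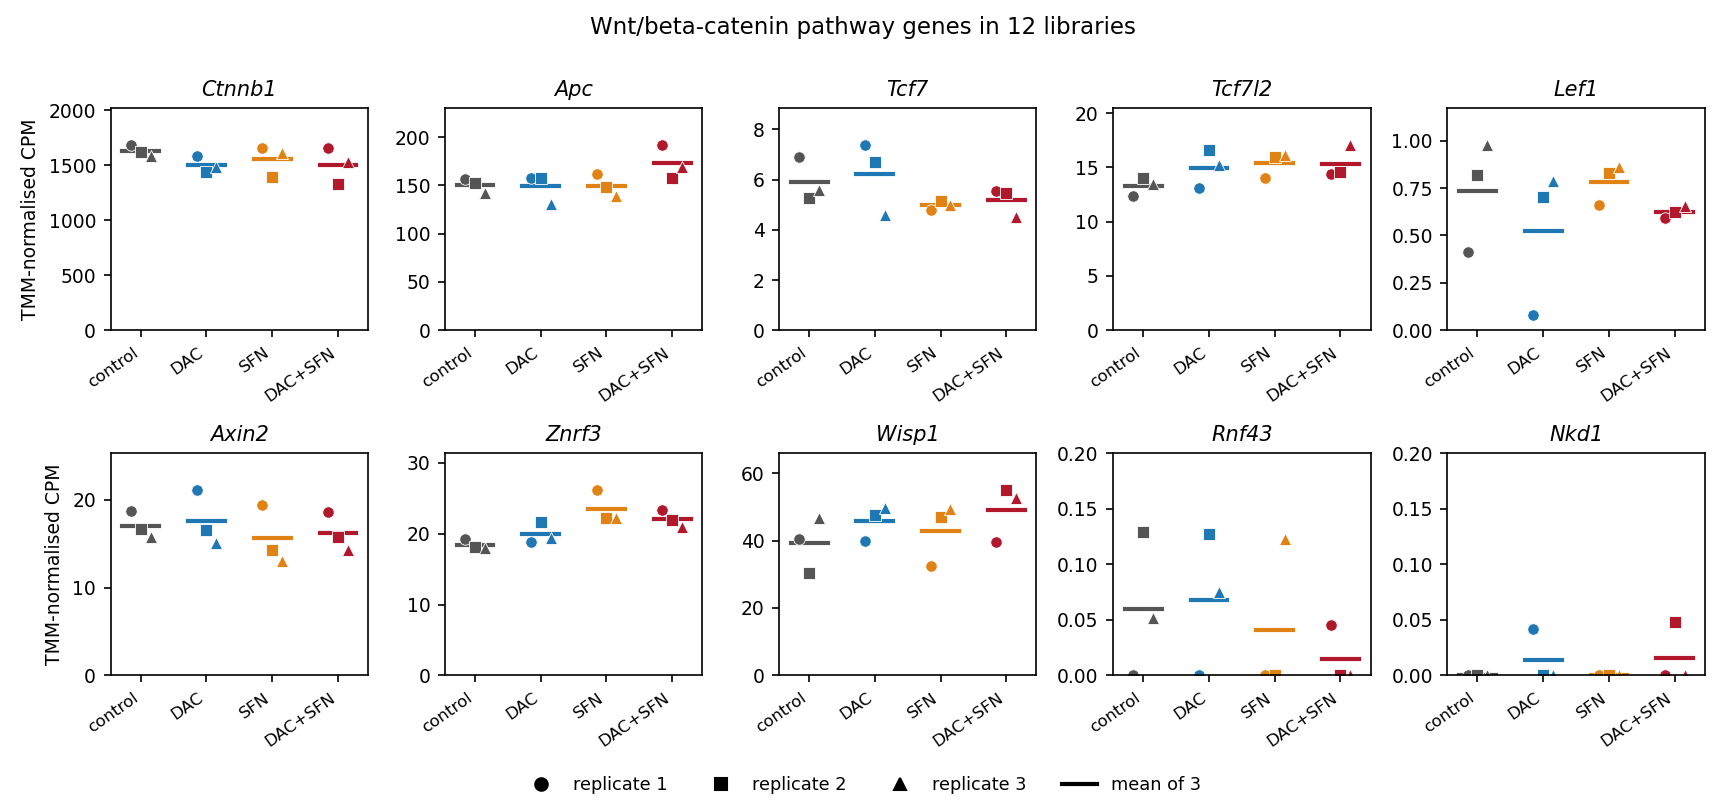
Level of each of the 10 genes in the 12 libraries (vertical axis, TMM-normalised CPM, starting at 0, with its own scale for each gene), by group on the horizontal axis. Each symbol is 1 library, its shape gives the replicate, and the line is the mean of 3. Znrf3 lies above all 3 controls in every SFN and DAC+SFN library, while Axin2 differs more between replicates than between groups.

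Compared per kilobase of exon (RPKM, from the same scaled libraries), the genes covered a wide range of levels in control cells. Ctnnb1 was by far the highest, at 313 ± 9.87 RPKM (SD, n = 3). Apc followed with 9.32 ± 0.476 RPKM, and Wisp1, which encodes a secreted matricellular protein and is named Ccn4 in the current annotation, with 7.04 ± 1.48 RPKM. The ranges of Apc (8.8 to 9.72) and Wisp1 (5.47 to 8.41) did not overlap. Axin2 stood at 3.09 ± 0.275 RPKM, Znrf3 at 2.34 ± 0.0882, Tcf7 at 2.25 ± 0.331 and Tcf7l2 at 1.51 ± 0.0956 RPKM. Of these neighbours, Znrf3 and Tcf7 overlapped in range, and Axin2 lay above and Tcf7l2 below them in all 3 control libraries. The order of the last 3 depends on the length used: per kilobase of the longest transcript, Tcf7l2 (3.58 RPKM) came before Znrf3 (2.93) and Tcf7 (2.39).

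The other 3 genes were near or at the limit of detection. Lef1, which encodes the LEF1 transcription factor, had 178 counts in all libraries together, between 2 and 22 in each, and a level of 0.0837 ± 0.033 RPKM in control cells. Its mean was 0.736 ± 0.29 CPM over the controls, 0.524 ± 0.384 CPM over the DAC libraries, 0.782 ± 0.108 over those with SFN, and 0.623 ± 0.031 over those with both drugs (SD, n = 3). The lowest library was DAC replicate 1 with 2 counts, and all treated groups overlapped with control. Fitted without the filter, Lef1 differed from control by a log2 fold change of -0.55 (SE 0.46) with DAC, 0.1 (SE 0.42) with SFN and -0.21 (SE 0.45) with DAC+SFN, with adjusted p of 0.815 to 0.977 in edgeR's quasi-likelihood test. Rnf43 had 12 counts in all, with 0 in 6 libraries and at most 3 in any other. Nkd1 had 2 counts in all, 1 in DAC replicate 1 and 1 in DAC+SFN replicate 2. At this depth no difference between groups was detectable for Rnf43 or Nkd1, and a count of 0 allows up to 0.112 to 0.191 CPM, for counting error alone.

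None of the 7 genes above the filter was called with DAC alone, 1 was called with SFN (Znrf3, higher) and 2 with DAC+SFN (Apc and Znrf3, both higher), at an adjusted p under 0.05. Over all genes tested, the share called was 0.18% with DAC, 13.9% with SFN and 31.6% with DAC+SFN, against 0 of 7, 1 of 7 (14.3%) and 2 of 7 (28.6%) here, so these shares were close to the background. Counting higher calls alone, the background was 8.27% with SFN and 17% with DAC+SFN. For DAC, 1170 of all genes and none of the 7 had an unadjusted p under 0.05, and DESeq2's Wald test called none of the 7 either. The median log2 fold change of the 7 genes was 0.056 with DAC, -0.0077 with SFN and 0.2 with DAC+SFN, beside medians of 0.0049, 0.004 and 0.0078 over all genes. No gene among the 7 changed by more than 2-fold. Of all genes, 0.0344%, 1.28% and 2.66% did so with an adjusted p under 0.05 in the 3 comparisons. The 3 comparisons share the control libraries.

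**Figure D2:**
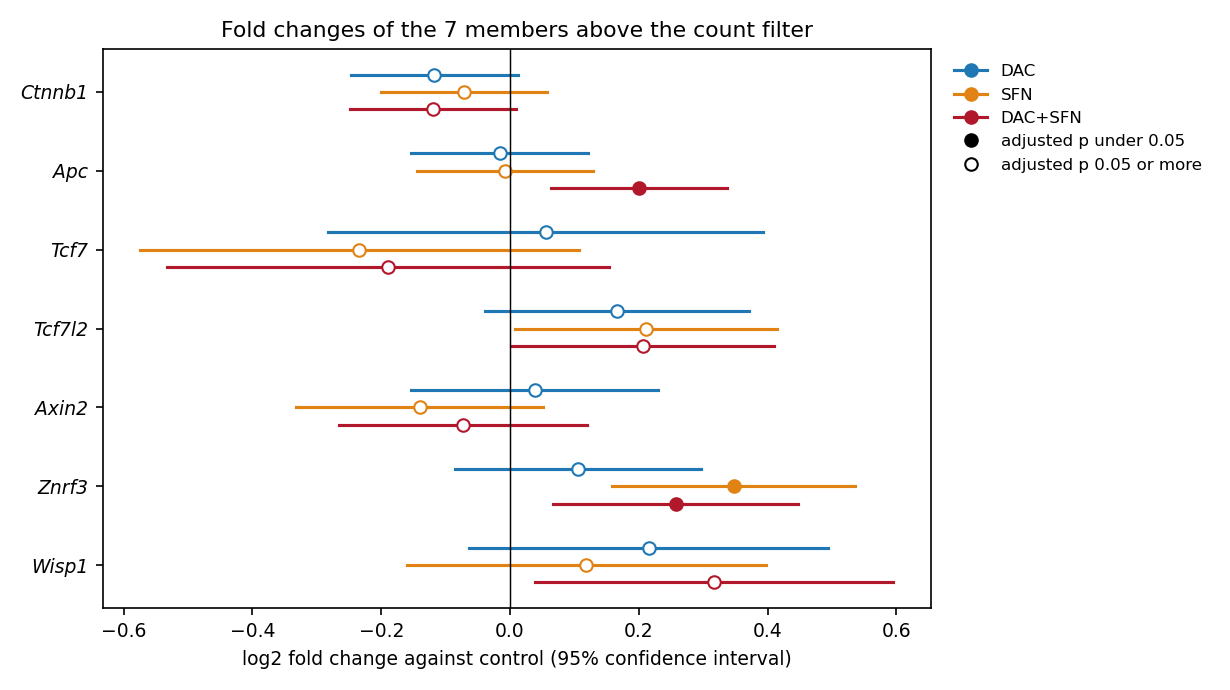
Fitted log2 fold change against control (horizontal axis) of the 7 genes above the filter, for DAC, SFN and DAC+SFN. Points are estimates, lines are 95% confidence intervals, and filled points have an adjusted p under 0.05. Filled points are Apc with DAC+SFN (0.2) and Znrf3 with SFN (0.35) and DAC+SFN (0.26).

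Znrf3 encodes a membrane ubiquitin ligase that clears Frizzled receptors and is inactivated by R-spondins through LGR receptors. It lies on chromosome 11 (chr11:5276324-5444847, reverse strand, mm10), and no other GENCODE gene overlaps it. In control it had 19.3, 18.1 and 18 CPM in replicates 1, 2 and 3, with SFN 26.1, 22.2 and 22.3 CPM, and with DAC+SFN 23.4, 21.9 and 21 CPM. Every library with SFN, alone or with DAC, was above the 3 controls. The DAC libraries, at 18.8, 21.6 and 19.3 CPM, overlapped with the controls. Relative to control, Znrf3 rose 1.27-fold with SFN (log2 fold change 0.35, SE 0.088, adjusted p = 0.017 in edgeR's quasi-likelihood test) and 1.19-fold with DAC+SFN (0.26, SE 0.089, 0.0398), higher in 3 of 3 replicates each time. With DAC it differed by 0.11 (SE 0.09, 0.738), with an interval of -0.0862 to 0.297.

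The difference of Znrf3 between DAC+SFN and SFN was -0.09 on the log2 scale (interval -0.276 to 0.0958, adjusted p = 0.631), between DAC+SFN and DAC it was 0.15 (-0.0386 to 0.34, 0.272), and the interaction was -0.2 (-0.463 to 0.0713, 0.943). Without the replicate block in the model, the adjusted p of Znrf3 rose to 0.13 with SFN and to 0.0969 with DAC+SFN. When libraries were left out in turn, the call with SFN was kept in 8 of 12 fits and lost without control replicate 1 or 2 or SFN replicate 1 or 3 (adjusted p up to 0.111), and the call with DAC+SFN was kept in 4 of 12 and lost without any of the control or DAC+SFN libraries or SFN replicate 2 or 3 (up to 0.134).

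Apc encodes a scaffold of the destruction complex. In control it had 157, 152 and 142 CPM in replicates 1, 2 and 3, and with DAC+SFN 192, 158 and 169 CPM. All 3 DAC+SFN libraries were above all 3 controls, the nearest pair being DAC+SFN replicate 2 and control replicate 1. With DAC it had 158, 158 and 131 CPM and with SFN 162, 148 and 139 CPM, and both groups overlapped with control. Apc rose 1.15-fold with DAC+SFN (log2 fold change 0.2, SE 0.064, adjusted p = 0.027). It differed from control by -0.016 (SE 0.064, adjusted p = 0.956) with DAC and by -0.0077 (SE 0.064, 0.959) with SFN.

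Against DAC, where 16.1% of all genes were called (9.55% higher), Apc was the 1 gene of the 7 called with DAC+SFN, 1.16-fold higher (log2 0.22, SE 0.064, adjusted p = 0.0328). By replicate the differences were 0.28, 0 and 0.37. Against SFN, where 1.61% of all genes were called, none of the 7 was in edgeR's fit of all 4 groups or in DESeq2, whereas Apc (adjusted p = 0.0135) and Wisp1 (0.0484) were in edgeR's fit of only the groups compared. In the fit of all groups, Apc was the 1 with an unadjusted p under 0.05 (0.21, SE 0.064, unadjusted p of 0.00537, adjusted p = 0.103). The interaction of DAC and SFN for Apc was 0.22 (interval 0.0312 to 0.417, unadjusted p = 0.0258, adjusted 0.847), and no gene of the 11638 passed for the interaction in edgeR or in DESeq2, 683 having an unadjusted p under 0.05. Without the replicate block the adjusted p of Apc was 0.199 against control and 0.299 against DAC. When libraries were left out in turn, each call was kept in 6 of 12 fits. The call against control was lost without any control, DAC+SFN replicate 1 or 3, or SFN replicate 2 (adjusted p up to 0.133), and the call against DAC without DAC replicate 1 or 3, DAC+SFN replicate 1 or 3, or SFN replicate 1 or 2 (up to 0.149). A processed pseudogene on the opposite strand overlaps Apc, and the strand setting of the counting is not given in the sources used here.

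Ctnnb1 encodes beta-catenin itself and lies on chromosome 9 (chr9:120929216-120960507), overlapped by an antisense transcript and by Ulk4 on the other strand. It had 1681, 1620 and 1579 CPM in the 3 controls, 1586, 1435 and 1484 CPM with DAC, 1656, 1396 and 1607 CPM with SFN, and 1654, 1327 and 1530 CPM with DAC+SFN. The lowest library of each treated group was replicate 2, and all groups overlapped with control. The fitted difference of Ctnnb1 on the log2 scale was -0.12 with DAC (interval -0.247 to 0.0117, adjusted p = 0.546), -0.072 with SFN (-0.201 to 0.0578, 0.472) and -0.12 with DAC+SFN (-0.249 to 0.00979, 0.147). Its counts were 22485 to 39610 per library.

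Of the TCF/LEF transcription factors, Tcf7l2 (TCF4 protein, chr19:55741820-55933654) had 12.4, 14 and 13.5 CPM in the 3 controls. It had 14.1, 16 and 16.2 CPM with SFN and 14.4, 14.6 and 17 CPM with DAC+SFN, all above the highest control, and 13.1, 16.6 and 15.2 CPM with DAC, which overlapped. The log2 fold changes were 0.21 with SFN (SE 0.095, unadjusted p = 0.0428, adjusted 0.158), 0.21 with DAC+SFN (SE 0.096, 0.0486, 0.115) and 0.17 with DAC (SE 0.096, adjusted 0.593), so that no difference passed the adjustment over all genes. Tcf7 (TCF1 protein, chr11:52252371-52283014, reverse strand) was lower in counts, with 97 to 178 per library. Control libraries had 6.9, 5.25 and 5.6 CPM, DAC libraries 7.37, 6.7 and 4.57, SFN libraries 4.8, 5.16 and 4.99, and DAC+SFN libraries 5.55, 5.46 and 4.53 CPM. The 3 SFN libraries were below all controls, and the other groups overlapped with them. On the log2 scale it differed by -0.23 with SFN (interval -0.574 to 0.107, adjusted p = 0.359), -0.19 with DAC+SFN (-0.532 to 0.154, 0.397) and 0.056 with DAC (-0.282 to 0.393, 0.937). An antisense transcript overlaps Tcf7.

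Axin2, the feedback scaffold that is widely read as a reporter of beta-catenin and TCF activity, lies on chromosome 11 (chr11:108920349-108950783), with an antisense transcript on the other strand. Replicates 1, 2 and 3 of Axin2 had 18.7, 16.6 and 15.7 CPM among the controls, 21.1, 16.6 and 15.1 CPM among the DAC libraries, 19.4, 14.3 and 13 CPM among those with SFN, and 18.6, 15.8 and 14.3 CPM among those with both drugs. In each group replicate 1 was the highest, and all groups overlapped with control. The log2 fold change was 0.038 with DAC (interval -0.154 to 0.23, adjusted p = 0.92), -0.14 with SFN (-0.332 to 0.0518, 0.327) and -0.073 with DAC+SFN (-0.266 to 0.12, 0.569). The difference between DAC+SFN and SFN was 0.067 (-0.126 to 0.259) and the interaction 0.029 (-0.243 to 0.3).

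Wisp1 (Ccn4, chr15:66891320-66923201), a Wnt target first described in Wnt-transformed mammary cells, had 40.4, 30.4 and 46.8 CPM in the 3 controls and 39.6, 54.9 and 52.7 CPM with DAC+SFN. It had 39.7, 47.6 and 49.6 CPM with DAC and 32.3, 47.1 and 49.3 CPM with SFN. Control replicate 2 was the lowest of the 12 libraries, and every treated group overlapped with control. The log2 fold change with DAC+SFN was 0.32 (SE 0.13, unadjusted p = 0.028, adjusted 0.0761), made up of differences of -0.03, 0.85 and 0.17 in replicates 1, 2 and 3. It was 0.09 without control replicate 2 and 0.5 without control replicate 1, where the adjusted p was 0.0155. Without the filter on low counts the adjusted p was 0.0267. With DAC it was 0.21 (SE 0.13, adjusted p = 0.614) and with SFN 0.12 (SE 0.13, 0.595). Without control replicate 2 these were 0 and -0.11, and without control replicate 1 they were 0.4 and 0.29. The study's cytokine array, run on separately seeded dishes, reported more CCN4 in the supernatant with both drugs than in control. Protein levels were not analysed here.

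Replicates with the same number deviated together in all groups, and between replicate numbers 33.9% of all genes tested differed at an adjusted p under 0.05 (edgeR's quasi-likelihood test of both block terms). Among the 7 genes, 4 did: Axin2, Apc, Ctnnb1 and Wisp1. Axin2 differed most, with an adjusted p of 0.00212. Its mean over the 4 groups was 19.5 ± 1.14 CPM in replicate 1, 15.8 ± 1.09 in replicate 2 and 14.5 ± 1.15 in replicate 3 (SD, n = 4), and the 4 libraries of replicate 1 (18.6 to 21.1 CPM) were above the other 8, of which the highest had 16.6 CPM. On the log2 scale, replicates 2 and 3 of Axin2 differed from replicate 1 by -0.3 and -0.42, compared with at most 0.14 in size for any treatment against control.

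Wisp1 varied in the other direction, with replicate 3 higher than replicate 1 by 0.38 (adjusted p = 0.0437). Apc was lower in replicate 3 than in replicate 1 by a log2 difference of -0.21 (0.0273), and Ctnnb1 was lowest in replicate 2, by -0.19 (0.0323). Tcf7 (0.187), Tcf7l2 (0.124) and Znrf3 (0.465) did not pass. The library numbers in the labels follow the replicate number, so culture repeat and library batch cannot be told apart.

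**Figure D3:**
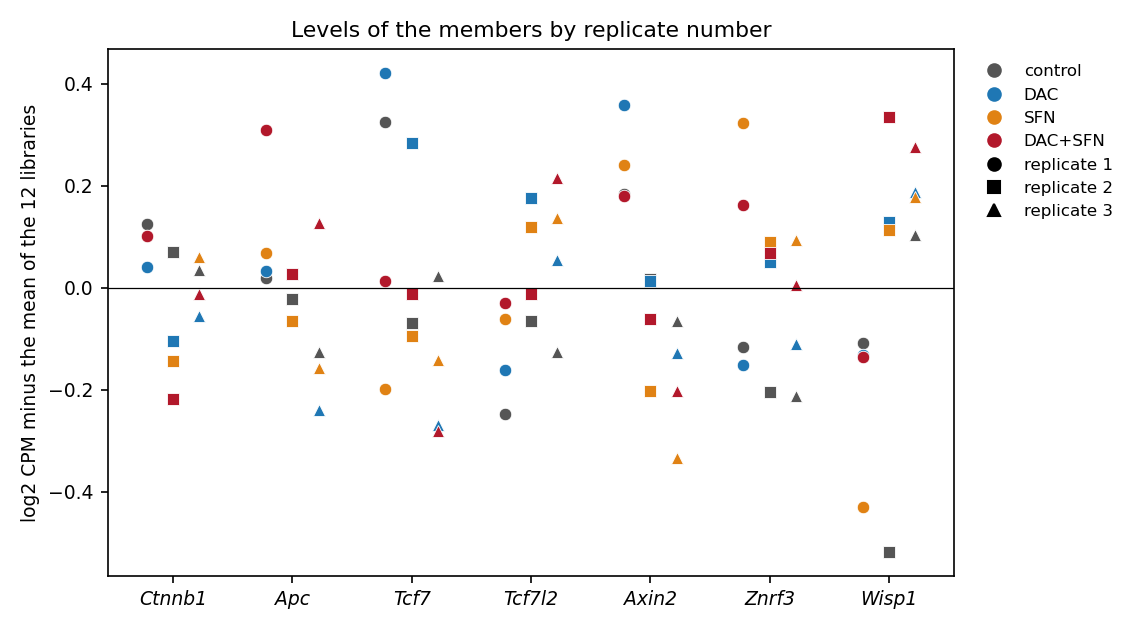
Deviation of each library from the gene's own mean over the 12 libraries (vertical axis, log2 CPM) for the 7 genes above the filter, with replicates 1, 2 and 3 from left to right within a gene (shape) and groups by colour. The 4 replicate 1 libraries of Axin2 lie above its other 8, and for Wisp1 control replicate 2 is the lowest library.

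The 5 genes whose log2 CPM followed that of Axin2 most closely over the 12 libraries were Fam174b (Pearson's r = 0.902), Sptlc2 (0.9), Zfp128 (0.889), Lgmn (0.884) and Ist1 (0.876). All 5 had their highest mean in replicate 1, as Axin2 had. After the mean of each replicate number was removed, r was 0.714, 0.746, 0.747, 0.577 and 0.502 in the same order. These values describe the 12 libraries, which share their replicate differences, and were picked as the highest of all genes tested.

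Beyond the 10 genes, 148 other symbols of the pathway were followed in 6 lists by role, of which 87 were above the filter. The lists were chosen with earlier results of these data known, so a share above that of all genes is no test of the pathway. With DAC 1 of the 87 was called (1.15%), with SFN 13 (8 higher and 5 lower, 14.9%) and with DAC+SFN 26 (18 higher and 8 lower, 29.9%), where the shares of all genes were 0.18%, 13.9% and 31.6%. Their median log2 fold changes were 0.0027, -0.016 and 0.021. Without the replicate block, 0, 0 and 8 were called, and the 8 with DAC+SFN were Wnt9a, Csnk1g1, Dvl2, Tle3, Tcf7l1, Ccnd1, Ccnd2 and Birc5, each of which was also called in 12 of 12 fits with a library left out. In DAC+SFN against DAC 14 were called (16.1%, as for all genes), and against SFN 3 were (3.45%, beside 1.61% of all genes): Ep300 (log2 fold change 0.23, adjusted p = 0.049) and Ccnd2 (0.34, 0.0288) higher and Birc5 (-0.37, 0.031) lower. Without the block 0 were called in either comparison, and with a library left out 0 to 9 were called against SFN.

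**Figure D4:**
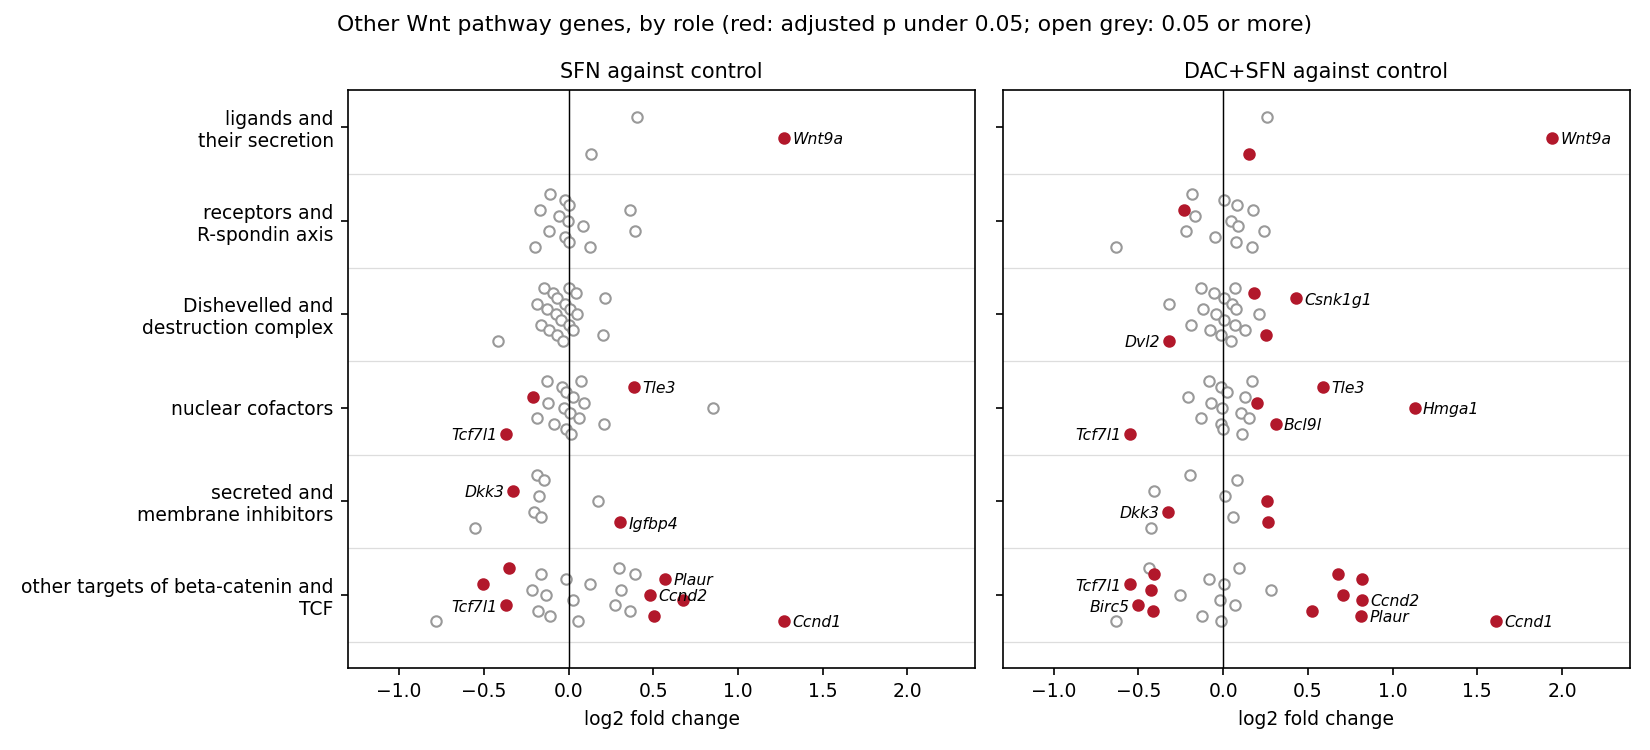
Fitted log2 fold change (horizontal axis) of the other pathway genes above the filter, by role (vertical axis), with SFN (left) and DAC+SFN (right) against control. Each point is 1 gene, placed within its row so that points stay apart, red points have an adjusted p under 0.05, and Tcf7l1 stands in both lists that hold it. Wnt9a and Ccnd1 lie farthest to the right in both panels.

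Of the 21 genes for ligands and their secretion 3 were above the filter, and Wnt1, Wnt2, Wnt3a, Wnt5a and Wnt16 had no count in any library. Wnt9a, a Wnt ligand, was low in control (1.31 ± 0.318 CPM, SD, n = 3) and rose to 3.21 ± 1.48 CPM with SFN (log2 fold change 1.27, SE 0.25, adjusted p = 0.00423) and 5.09 ± 2.32 CPM with DAC+SFN (1.94, SE 0.25, 6.29e-05). The lowest library with DAC+SFN (3.6 CPM) was above the highest control (1.59 CPM). With DAC it stood at 2.71 ± 0.898 CPM (1.05, SE 0.26, adjusted p = 0.145). Without the replicate block Wnt9a passed with DAC+SFN (0.0174), and its call with SFN was lost without the block (0.194) and without control replicate 2 (0.0558). Wls, which carries Wnt proteins to the cell surface, was higher with DAC+SFN by 0.15 (0.0394), a call that was lost without the block (0.205), without the filter (0.137), in the fit of only the groups compared (0.223) and in 10 of 12 fits with a library left out, all but those without DAC replicate 1 or 3. Wnt5b, a noncanonical ligand, differed by 0.26 (0.429).

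Of 22 receptor and R-spondin genes 14 were above the filter. None of the 14 was called with SFN and 1 (7.14%) was with DAC+SFN, beside 13.9% and 31.6% of all genes. The 1 called was the Frizzled receptor Fzd7, which fell from 115 ± 21.8 to 96.6 ± 7.08 CPM with DAC+SFN (-0.23, SE 0.067, adjusted p = 0.0157). The groups overlapped (90.6 to 133 CPM in control and 90.5 to 104 with DAC+SFN), and the call was lost without the block (0.309) and without control replicate 1 or 3 or DAC+SFN replicate 1 (up to 0.096). The coreceptor Lrp5 (0.17, 0.146) and the R-spondin receptors Lgr4 (-0.18, 0.175) and Lgr5 (-0.63, 0.108, at 0.935 CPM) did not pass. Lrp5 and Lgr5 each passed without control replicate 3 or DAC+SFN replicate 3, with log2 fold changes of up to 0.26 for Lrp5 and down to -0.96 for Lgr5. Of the Dishevelled and destruction complex genes, 21 of 22 were above the filter. None of the 21 was called with SFN and 4 (19%) were with DAC+SFN, again beside 13.9% and 31.6% of all genes. These were Csnk1g1, a casein kinase 1 (0.43, SE 0.076, 0.000764), Dvl1, a Dishevelled (0.25, SE 0.083, 0.0312), and Usp34, a deubiquitinase of axin (0.18, SE 0.058, 0.0258), which were higher, and Dvl2, another Dishevelled, which was lower (-0.32, SE 0.073, 0.00453). The calls of Dvl1 and Usp34 were lost without the block (0.112 and 0.111) and in the fit of only the groups compared (0.0681 and 0.133). Dvl1 was called in 8 of 12 fits with a library left out (not without replicate 1 or 2 of control or DAC+SFN) and Usp34 in 7 (not without control replicate 1 or 2, SFN replicate 2, or DAC+SFN replicate 1 or 3).

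Among nuclear cofactors, 19 of 20 were above the filter. The share of them called was 15.8% with SFN and 26.3% with DAC+SFN, beside 13.9% and 31.6% of all genes. With SFN, Tle3, a Groucho corepressor, was higher (0.39, SE 0.1, adjusted p = 0.0211), and Tcf7l1, the TCF family member known mostly as a repressor, and the Mediator subunit Med12 were lower (-0.37, 0.0106 and -0.21, 0.0353). With DAC+SFN, 4 were higher and 1 lower. Tle3 rose from 42.6 ± 1.46 to 64.6 ± 11.7 CPM (0.59, SE 0.1, 0.000688) and Tcf7l1 fell from 23.8 ± 0.952 to 16.3 ± 1.39 CPM (-0.55, SE 0.088, 0.000346), with no overlap for either gene. The acetyltransferase Ep300 (0.2, 0.0139), the beta-catenin cofactor Bcl9l (0.31, 0.033) and Hmga1, a chromatin protein (1.13, SE 0.39, 0.0397), were also higher. Hmga1 was near the filter, with 5 to 68 counts in these groups, and its groups overlapped. Its log2 fold change ranged from 0.62 without DAC+SFN replicate 2 to 1.62 without DAC+SFN replicate 3, and its call was lost in 6 of 12 such fits (replicates 1 and 2 of control and DAC+SFN, replicates 1 and 3 of SFN, adjusted p up to 0.366), without the block (0.32) and in the fit of only the groups compared (0.0673). The calls of Ep300 (0.173) and Bcl9l (0.14) were also lost without the block. With a library left out, Ep300 was lost without control replicate 1 or 2 or DAC+SFN replicate 1 (up to 0.0873), and Bcl9l without replicate 1 or 2 of control or DAC+SFN (up to 0.225). The calls of Tle3 and Tcf7l1 with DAC+SFN held in 12 of 12 fits with a library left out and without the block (0.0258 and 0.0107), whereas those with SFN were lost without the block (0.231 and 0.13) and, with a library left out, in 4 fits for Tle3 (replicates 1 and 2 of control and SFN, up to 0.163) and 3 for Tcf7l1 (control replicate 1, SFN replicates 2 and 3, up to 0.0749).

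Of 26 secreted and membrane inhibitors 9 were above the filter, and the feedback inhibitors Dkk1, Notum and Nkd2 had at most 5, 7 and 6 counts in any library. The share of the 9 called was 22.2% with SFN and 33.3% with DAC+SFN, beside 13.9% and 31.6% of all genes. Dkk3, a divergent Dickkopf protein, was lower with SFN (-0.33, SE 0.093, adjusted p = 0.0296) and with DAC+SFN (-0.33, SE 0.093, 0.0153), although its groups overlapped (54.8 to 87.2 CPM in control and 36.8 to 78.2 with DAC+SFN). Igfbp4, an IGF-binding protein that also binds Frizzled and LRP6, was higher with SFN (0.3, 0.0142) and with DAC+SFN (0.26, 0.0147). Kremen1, a Dickkopf receptor, was higher with DAC+SFN (0.26, 0.0287), and Frzb, a secreted Frizzled-related protein, differed by -0.2 (0.0607). None of these calls held without the block, where the adjusted p with SFN and DAC+SFN was 0.724 and 0.602 for Dkk3 and 0.159 and 0.0827 for Igfbp4, and was 0.0781 for Kremen1 with DAC+SFN. With a library left out, the calls with DAC+SFN were lost without control replicate 2 or DAC+SFN replicate 1 or 2 for Dkk3 (up to 0.109), control replicate 1 or 2 or DAC+SFN replicate 1 for Igfbp4 (up to 0.095), and replicate 1 or 2 of control or DAC+SFN for Kremen1 (up to 0.164). Those with SFN were lost without control replicate 1 or 2 or any SFN library for Dkk3 (up to 0.189) and without control replicate 1 or 2 or SFN replicate 1 for Igfbp4 (up to 0.0987).

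Of 42 other genes described as targets of beta-catenin and TCF, 23 were above the filter, and Sp5 had no count in any library. With DAC, the 1 called was Ccnd1, which encodes cyclin D1 (log2 fold change 0.59, SE 0.1, adjusted p = 0.0344), a call that was lost without the block, in the robust fit and in 5 of 12 fits with a library left out (control replicates 1 and 2, DAC replicates 2 and 3, SFN replicate 1, adjusted p up to 0.263). With SFN 5 were higher and 3 lower (34.8% of the 23, beside 13.9% of all genes), and with DAC+SFN 7 were higher and 5 lower (52.2%, beside 31.6%). The list was chosen with earlier results of these data known. These shares therefore cannot show whether targets changed more often than other genes. Without the block, 0 of the targets were called with SFN, and those called with DAC+SFN were Tcf7l1, Ccnd1, Ccnd2 and Birc5. Ccnd1 had 233 to 452 CPM in control and 667 to 1375 CPM with DAC+SFN, which did not overlap, and rose by 1.27 with SFN (SE 0.1, 4.36e-06) and 1.61 with DAC+SFN (SE 0.1, 2.55e-07). Ccnd2 (cyclin D2) rose from 863 ± 79.4 to 1213 ± 242 CPM with SFN (0.48, 0.000383) and 1527 ± 170 CPM with DAC+SFN (0.82, SE 0.069, 2.34e-06). Plaur, the urokinase receptor, rose by 0.57 with SFN (0.00549) and 0.81 with DAC+SFN (0.000171).

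The other targets higher with SFN were Tnfrsf19 and Irs1, and those lower were Sox9, Met and Tcf7l1. Birc5 (survivin) was lower with DAC+SFN, from 157 ± 4.48 to 112 ± 11.9 CPM (-0.5, SE 0.075, adjusted p = 0.000209), and differed by -0.13 with SFN (0.253). Without the replicate block, Ccnd1 (0.0291), Ccnd2 (0.00962) and Birc5 (0.00979) passed with DAC+SFN and Plaur (0.136) did not, while with SFN none of Ccnd1 (0.162), Ccnd2 (0.153) and Plaur (0.433) passed. The call of Plaur with SFN was also lost without control replicate 2 (0.0605). For Axin2 the interval with DAC+SFN was -0.266 to 0.12, as given above. Myc differed by 0.28 (0.096) and Mitf by -0.081 (0.286).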

How the data were processed

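The authors deposited raw counts per gene symbol for 12 poly(A) libraries. They checked reads with FastQC 0.11.7, trimmed them with Trimmomatic 0.38, aligned them to mm10 with TopHat2 2.1.1 and counted uniquely aligned reads with HTSeq in Blast2GO. The annotation and strand setting of the counting are not given in the sources used here. Groups and replicate numbers were taken from the labels.

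Genes that reached 1 CPM in 3 or more libraries were tested with edgeR 4.0.16 (TMM, quasi-likelihood F-test, two-sided, Benjamini-Hochberg adjustment over 11638 genes, R 4.3.3), in a model of all 12 libraries with replicate number as a block, since the study's methods correct for batch. The replicate block pairs the libraries: the 18 same-numbered pairs correlated at 0.27 to 0.732 in their deviations from the group means, and different-numbered pairs at -0.267 on average. Replicates were not copies (chi-square per gene of 13.2 to 35.9). CPM is scaled by TMM, fitted fold changes use a prior count of 0.125, and errors are SD or SE. Positions and exon lengths are from GENCODE M21 on mm10 and promoters from RefSeq (GRCm38.p6). Scripts were tested on simulated data.

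Alternatives were DESeq2 1.42.0 (size factors, Wald test), 2 other count filters, no block, a robust fit, only the groups compared, and each library left out. From each role list the up to 4 genes with the smallest adjusted p in DAC+SFN against control were named, with list genes changed over 2-fold, genes in counts of 5 or fewer, and the 5 genes most like Axin2. Med12, Tnfrsf19, Irs1, Sox9, Met, Myc, Mitf and markers were named after their values were seen. The members and lists were chosen with earlier results of these data known.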

Additional observations from a re-analysis of the deposited data

Results flagged for a closer look

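For Lgr5, a receptor for R-spondins, the change with SFN ran in opposite directions without and with DAC. SFN against control gave log2 differences of 0.32, 0.01 and 0.81 in replicates 1, 2 and 3, and DAC+SFN against DAC gave -0.83, -0.77 and -0.05. The interaction was -0.91 on the log2 scale (unadjusted p = 0.0338, adjusted p = 0.85 in edgeR's quasi-likelihood test over all genes), so it failed the correction. Lgr5 stood at 0.935 to 1.88 CPM in the group means, close to the filter, and by the labels the SFN dose differed between the groups.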

How the results depend on the processing

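Over all genes, 21, 1619, 3683, 1879 and 187 were called in DAC, SFN and DAC+SFN against control and in DAC+SFN against DAC and against SFN. Without the replicate block these were 0, 23, 1201, 20 and 0, the called members 0 in each, and the called role list genes 0, 0, 8, 0 and 0. In DESeq2's Wald test 83 genes were called with DAC and 410 against SFN, with 2 list genes for DAC and 1 member (Apc) for DAC+SFN. Without a count filter the counts were 169 for DAC (3 list genes), 486 against SFN and 1 for the interaction. The robust fit called 0 list genes with DAC. In fits of only the groups compared, 662 genes (10 list genes) were called with DAC, 760 (9 list genes, 0 members) against DAC and 1221 (13 list genes, and the members Apc and Wisp1, 2 in all) against SFN, and 0 members with DAC+SFN. Znrf3 with DAC+SFN missed the threshold in DESeq2 (adjusted p = 0.0659), without a filter (0.0811) and in the fit of only those groups (0.12). Apc with DAC+SFN missed it in the last fit against control (0.109) and DAC (0.209).

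With each library left out in turn, the calls ranged from 0 to 101 with DAC (0 to 2 list genes), 728 to 2105 with SFN (0 to 1 members, 6 to 16 list genes), 2336 to 4205 with DAC+SFN (0 to 2 members, 13 to 30 list genes), 770 to 2381 against DAC (0 to 1 members, 4 to 19 list genes) and 0 to 700 against SFN (0 to 9 list genes). Signs turned for values near 0: Apc with DAC (-0.08 to 0.04) and SFN (-0.04 to 0.01), Axin2 with DAC (-0.03 to 0.08), Tcf7 with DAC (-0.06 to 0.21), and Wisp1 with SFN (-0.11 to 0.29) and DAC+SFN against DAC (0 to 0.16). The block changed no call of a member other than those of Znrf3 and Apc given above, and DESeq2's size factors and a minimum of 10 counts changed none. The cause of these shifts was not tested. Lef1, Nkd1 and Rnf43 are limited by depth.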
